A study of Mus musculus with 16 samples.

Results

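Replicate 4 is 1 of 4 harvests of KMNTC and KM4A2cr cells in a ribosome profiling study of mouse lung tumour cells. It was chosen by the replicate number in the sample titles and holds 4 of 16 libraries, which come from 2 of 8 lysates. Each lysate gave a library of ribosome-protected fragments (RPFs), the stretches of mRNA that ribosomes shield from RNase I, and a library of cytoplasmic total RNA. KM cells come from the lung tumours of 1 male mouse that was homozygous for Rosa26 LSL-MYC, so all libraries share an added MYC transgene. KM4A2cr cells received lentiCRISPR with a guide directed at *Eif4a2* and are a pool of 4 clones that lacked eIF4A2 on western blot, whereas KMNTC cells received a non-targeting guide. Both lines were selected with puromycin, received no other treatment and were grown on plates to near confluence. The labels call the replicates independent experiments on different days, and 3 of the 4 days, replicates 1 to 3, serve as the comparison.

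Replicate 4 was singled out because its values were known to stand apart, so every difference between replicate 4 and replicates 1 to 3 is given below as a description with no test. Growth itself was not measured in these libraries. The day, the state of the cultures and the library preparation of replicate 4 cannot be told apart, and neither can fewer cells of a type from less RNA per cell in such bulk lysates. With 1 lysate against 3 in each line, replicate 4 has no replicate of its own within a line. Each replicate 4 library was also the shallowest of its group, with 5703271 and 4512403 RPF counts in KMNTC and KM4A2cr cells against 7251361 to 9621848 in the other RPF libraries. Total RNA depth was 5580727 and 5350920 counts in replicate 4 against 5647165 to 9312624.

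The libraries of replicate 4 stood apart as wholes. Across genes, Pearson's r between log2 CPM (counts scaled to library size) of RPF replicates 1 to 3 ranged from 0.951 to 0.973 in KMNTC cells and from 0.943 to 0.976 in KM4A2cr cells, and that of replicate 4 with them from 0.914 to 0.939 and from 0.886 to 0.917. The lines correlated with each other at 0.962 in replicate 4 and at 0.971 to 0.978 on the other days. Epithelial markers (8 of 8, among them *Epcam*, *Krt8* and *Krt18*) stood above 1 CPM in all libraries, with a summed RPF level of 13910 to 15060 CPM in replicate 4 and 9284 to 14510 CPM otherwise. *Sftpc*, *Sftpb* and *Nkx2-1*, defining genes of alveolar type II cells, stayed under 1 CPM in every library. Of 10 alveolar type II markers, 6 stayed under 1 CPM in every RPF library and 2 reached 1 CPM in all of them. Their summed RPF level was 161 to 188 CPM in replicate 4 and 85.9 to 192 CPM otherwise. The summed RPF level of 9 leukocyte markers was 696 to 781 CPM in replicate 4 and 75.4 to 129.5 CPM otherwise. Nearly all of it came from *Cd68*, a lysosomal membrane protein that is described with the lysosome, while *Cd3e*, *Adgre1* and *Lyz2* stayed under 1 CPM everywhere. Endothelial markers summed to 12.4 to 17.8 CPM against 1.81 to 4.25 CPM in RPFs, and 5 of the 7, among them *Pecam1* and *Vwf*, stayed under 1 CPM in every RPF library. The part of these markers in the results was not tested.

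Cells that leave the cell cycle lower the genes of DNA replication, which the E2F factors drive, and the genes of mitosis, whose promoters often hold the cell cycle genes homology region (CHR). Growing cells also make ribosomes. Ribosomal protein mRNAs and some translation factor mRNAs carry a 5′ terminal oligopyrimidine tract that ties their translation to mTOR. The assembly factors of the nucleolus do not depend on that tract. Lysosomal genes often hold the E-box in their promoters, a sequence bound by MYC and by the TFEB family.

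Promoters of the genes on which the proliferation and lysosome results turn are shown here, because most of the shifted members of each list lay on 1 side in replicate 4. Sequences are from RefSeq on GRCm38.p6, searched from 250 bases before to 50 bases after the annotated start on both strands, and 8192 of 10291 genes tested in RPFs had such a window. The E2F letters GCGGGAA lay in 36.7% (18 of 49) of the DNA replication promoters, in 10.6% of those of all tested genes and in 7.18% of all 15930 genes with a window. Capitals mark these letters, which read TTCCCGC on the other strand.
*Mcm7* (chr5:138172032-138172059, minus strand): aatttcgaaccGCGGGAAacagggtgtc
*Chaf1a* (chr17:56040358-56040385, plus strand): ggttgccgcggTTCCCGCcaaatacgag
*Pola1* (chrX:93632260-93632287, minus strand): aatgcactcccGCGGGAAggccgggggc
*Rrm1* (chr7:102441617-102441644, plus strand): aggagaactcgTTCCCGCcaggtccgct

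The CHR letters TTTGAA lay in 65.3% (49 of 75) of the mitosis promoters, in 13.5% of those of all tested genes and in 17.4% of all genes with a window. E2F and CHR letters overlapped each other in 0 windows, since these letters cannot share bases. Capitals mark the CHR letters.
*Cdk1* (chr10:69352911-69352938, minus strand): accgcggcgagTTTGAAactgctggcac
*Mki67* (chr7:135716461-135716488, minus strand): cgccgttttggTTTGAAtcgggcgggct
*Ncapg* (chr5:45669884-45669911, plus strand): cgcgatagttgTTTGAAaactctggcgc
*Cdc20* (chr4:118437345-118437372, minus strand): gacagttgggtTTTGAAggagccaatga

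The E-box letters CACGTG, which read the same on both strands, lay in 32.6% (15 of 46) of the lysosomal promoters, in 12.4% of those of all tested genes and in 9.33% of all genes with a window. Capitals mark the E-box. A match is a description of these letters and does not show that a factor bound there.
*Ctsd* (chr7:142387909-142387936, minus strand): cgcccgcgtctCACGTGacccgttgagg
*Lamp1* (chr8:13159089-13159116, plus strand): gggcaagatatCACGTGgtccagcgccc
*Ctsf* (chr19:4855075-4855102, plus strand): accccgtggtcCACGTGcctcgcgtaaa
*Gaa* (chr11:119267812-119267839, plus strand): ttctgtgcgatCACGTGtttgactctga

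Many genes besides the members of these lists differed in replicate 4 of both lines. A gene was called shifted when its replicate 4 value passed an adjusted p of 0.1 in edgeR's quasi-likelihood fit with the cell line as a term, and lay on the same side of the mean of replicates 1 to 3 in both lines. Here that value serves only as the rule of selection. The fit treats the 2 lysates of replicate 4 as independent although they share a day, so this is 1 day against 3, and the counts and the standard errors of replicate 4 shifts do not allow for that. In RPFs 3078 of 10291 tested genes (29.9%) were shifted, 1539 (15%) higher and 1539 (15%) lower in replicate 4. In total RNA 3627 of 10880 (33.3%) were shifted, 1937 (17.8%) higher and 1690 (15.5%) lower. Of 9989 genes tested in both, 1096 (11%) were higher in both kinds of library, 1006 (10.1%) lower in both, and 17 (0.17%) were shifted in opposite directions. The shifted genes had a median log2 difference of 1.08 in size in RPFs and 0.97 in total RNA, and 824 higher and 959 lower genes were shifted by at least 1 log2 unit in RPFs. In both kinds by at least 1 log2 unit, 464 genes (4.65%) were higher and 502 (5.03%) lower. Replicate 4 lay outside the whole range of replicates 1 to 3 in both lines for 2263 genes above (22%) and 2374 below (23.1%) in RPFs, and for 2538 (23.3%) and 2370 (21.8%) in total RNA. At the edge of the rule, *Cox6c* was just inside with a log2 fold change of 0.51 and *9530068E07Rik* just outside with 0.64.

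The number of shifted genes rests on the KM4A2cr lysate of replicate 4 more than on the others. Without it the fit selected 619 genes in RPFs, of which 596 were among the 3078, and 856 in total RNA. Without the KMNTC lysate of replicate 4 it selected 1528 in RPFs, of which 1353 were among the 3078. Scaling mattered for the balance of directions. With scaling by library size alone, the median of all genes lay at −0.40 in RPFs and −0.26 in total RNA, and 748 genes were higher and 2983 lower in RPFs and 1104 and 2787 in total RNA.

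**Figure D1:**
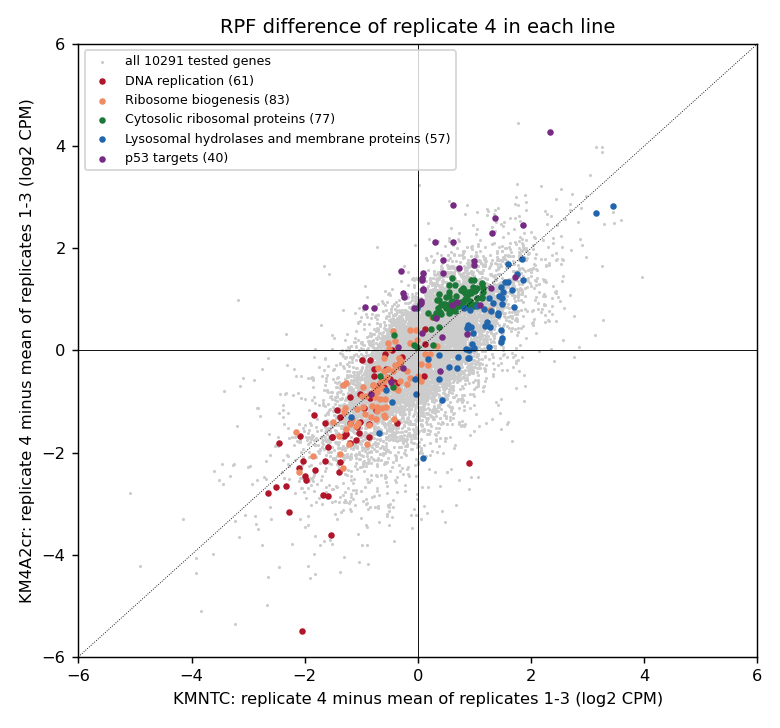
RPF difference between replicate 4 and the mean of replicates 1 to 3 in KMNTC cells (x axis) and KM4A2cr cells (y axis), in log2 CPM, with 1 point per tested gene (10291) and the colours marking gene lists. DNA replication genes gather in the lower left and cytosolic ribosomal proteins in the upper right, with list medians of −1.09 and 0.66 in KMNTC cells and −1.43 and 0.95 in KM4A2cr cells.

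*Eif4a2*, the gene targeted in KM4A2cr cells, was higher in replicate 4 of both lines, by far more than the difference between the lines. It encodes a DEAD-box helicase, a paralog of the initiation factor eIF4A1. KMNTC RPF replicates 1 to 3 held 97.7, 122 and 99.9 CPM of *Eif4a2* and replicate 4 held 389 CPM. KM4A2cr replicates held 51.0, 88.4 and 74.8 CPM and replicate 4 held 346 CPM. Both replicate 4 values lay above all others, and the replicate 4 library of the targeted line lay above every KMNTC library of the other days. Total RNA differed by less, with 220.5, 233 and 254 CPM against 524 CPM in KMNTC cells and 183, 201 and 242 CPM against 467 CPM in KM4A2cr cells. The log2 fold change of replicate 4 was 2.08 ± 0.22 (SE) in RPFs and 1.16 ± 0.18 in total RNA. Since a guide leaves most of a transcript in place, the *Eif4a2* counts check the cell line labels only weakly. Within replicates 1 to 3 the RPF level was lower in KM4A2cr cells, with a log2 difference of −0.60 ± 0.12 (SE, adjusted p = 0.00304 in edgeR's test with pairs as blocks), and in total RNA the difference was −0.19 (adjusted p = 0.147).

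*Eif4a1* lay on the other side. Its RPF level was 1284, 1504 and 1220 CPM in KMNTC replicates 1 to 3 and 857 CPM in replicate 4, and 1013, 1292 and 1101 CPM against 689 CPM in KM4A2cr cells. Replicate 4 was below the other 3 libraries in both lines and in both kinds of library. On the length-adjusted TPM scale of total RNA, the level of *Eif4a2* was 17.8%, 19.7% and 24.9% of that of *Eif4a1* in KMNTC replicates 1 to 3 and 78.8% in replicate 4, and 18.7%, 19.1% and 23.9% against 66.1% in KM4A2cr cells. *Pdcd4*, which encodes an inhibitor of eIF4A helicases, was higher in replicate 4 in RPFs, at 36.3 CPM against 13.8 to 32.96 CPM in KMNTC cells and at 48.5 CPM against 12.9 to 30.5 CPM in KM4A2cr cells. The 5 genes whose RPF levels followed *Eif4a2* most closely, after taking out the mean of each line, were *Klf3* and *Mapk8ip3* (Pearson's r = 0.997 for each over 8 libraries), *Fundc2* (0.996), *Zmiz1* (0.993) and *Rtraf* (0.991), out of 6164 genes compared. These 8 libraries share the contrast of replicate 4, so the likeness is a description of it.

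**Figure D2:**
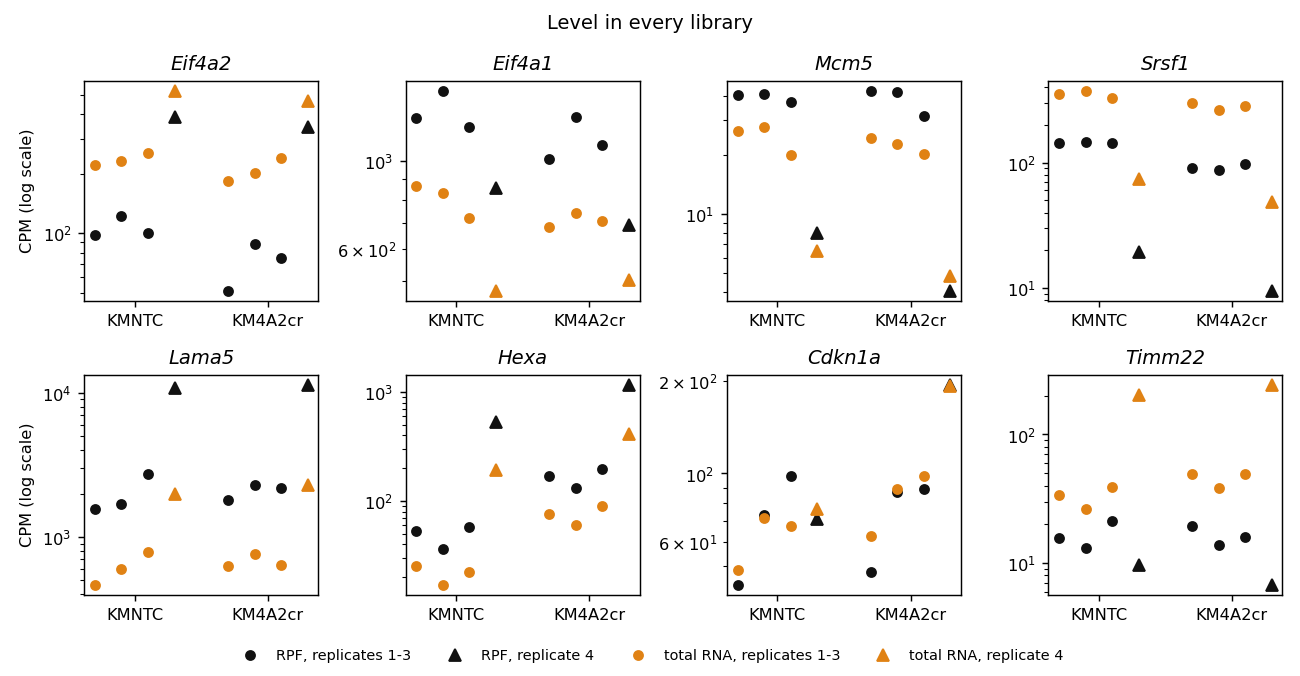
Level of 8 genes in every library in CPM on log axes, with circles for replicates 1 to 3 and triangles for replicate 4, black for RPFs and orange for total RNA. *Eif4a2*, *Lama5* and *Hexa* lie higher and *Eif4a1*, *Mcm5* and *Srsf1* lower in replicate 4 of both lines. *Cdkn1a* lies above the other days in KM4A2cr cells, and in KMNTC cells in total RNA only. The RPFs and total RNA of *Timm22* lie farther apart in replicate 4.

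DNA replication was the list with the lowest median among the 21 lists. Of 61 tested genes, 46 were lower and 0 higher in RPFs, with a median log2 fold change of −1.32, and 39 were lower and 3 higher in total RNA (median −0.998). Over all tested genes the medians were −0.04 and 0.00. *Mcm5*, a subunit of the replicative helicase, had 40.6, 40.8 and 37.3 CPM in KMNTC RPF replicates 1 to 3 and 7.97 CPM in replicate 4. In KM4A2cr cells it had 42.4, 42.1 and 31.6 CPM and then 4.04 CPM, so the groups did not overlap. *Rrm2*, the small subunit of ribonucleotide reductase, had 143, 125 and 123 CPM against 22.7 CPM in KMNTC cells and 163, 114.5 and 105 CPM against 19.4 CPM in KM4A2cr cells. Among the genes whose promoters are shown above, *Mcm7* (a helicase subunit) had a log2 fold change of −2.12, *Chaf1a* (a histone chaperone at the fork) −2.30, *Pola1* (the catalytic subunit of polymerase alpha) −2.60 and *Rrm1* (the large subunit of ribonucleotide reductase) −1.77. *Pcna*, the sliding clamp, was lower by less, with a log2 fold change of −1.17. E2F letters lay in 13.9% of promoters of genes shifted lower in RPFs and in 8.69% of those shifted higher.

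Replication-dependent histone genes, a group formed after their values were seen, were lower still. Of 38 tested in RPFs 37 were lower and 0 higher (median −3.12), and of 51 tested in total RNA 48 were lower and 0 higher (median −2.32). *Hist2h2aa1* had 114, 87.9 and 106 CPM in KMNTC RPF replicates 1 to 3 and 11.1 CPM in replicate 4, and 95.7, 60.03 and 53.3 CPM against 5.12 CPM in KM4A2cr cells. *Hist1h1d*, a linker histone, varied among the other days as well, with 233, 109 and 77.5 CPM against 10.7 CPM in KMNTC cells and 208, 36.0 and 34.5 CPM against 10.8 CPM in KM4A2cr cells. Many histone genes are near-identical copies, so the values of single copies are uncertain. The 8 genes with the largest shifts to lower values in both kinds of library, at a mean RPF level of at least 4 log2 CPM, were all histone genes.

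Fewer of the mitosis genes were shifted. Of 89 tested, 40 were lower and 3 higher in RPFs (median −0.71), and 26 lower and 4 higher in total RNA (median −0.53). *Cdk1*, the mitotic kinase, had 150.5, 264.5 and 239 CPM in KMNTC RPF replicates 1 to 3 and 91.9 CPM in replicate 4, and 147, 192 and 142 CPM against 78.6 CPM in KM4A2cr cells. *Ccnb1*, its cyclin, had a log2 fold change of −1.03 ± 0.34 and lay below the other days in both lines. *Ncapg*, a condensin subunit, and *Cdc20*, an activator of the anaphase-promoting complex, had −1.92 and −1.22. *Top2a*, which untangles DNA, and *Aurka*, a spindle kinase, had −0.82 and −0.44 and were not among the shifted genes. *Mybl2*, a factor that drives mitotic genes, had −2.24. *Cdc25b*, *Pttg1* and *Psrc1* were the 3 members that were higher. *Mki67*, the proliferation antigen, did not behave alike in the lines. It had 61.5, 141 and 124 CPM in KMNTC replicates 1 to 3 and 78.3 CPM in replicate 4, within their range, while KM4A2cr cells had 116, 168 and 157 CPM and then 24.2 CPM.

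In the list of growth-arrest genes 12 of 31 were higher and 1 lower in RPFs (median 0.63), and 10 of 34 were higher and 3 lower in total RNA. The RPF list median was 0.14 in KMNTC cells and 0.80 in KM4A2cr cells. *Rbl2*, the pocket protein of quiescent cells, had 7.51, 7.35 and 7.67 CPM in KMNTC RPF replicates 1 to 3 and 12.8 CPM in replicate 4, and 9.06, 9.72 and 10.9 CPM against 21.5 CPM in KM4A2cr cells. *Lin52*, a partner of pocket proteins in the DREAM complex, had a log2 fold change of 1.33 ± 0.26. *Cdkn1b*, which encodes the inhibitor p27, had 39.9, 32.3 and 22.1 CPM against 52.7 CPM in KMNTC cells and 43.8, 38.4 and 26.4 CPM against 61.7 CPM in KM4A2cr cells. *Cdkn2a* was the 1 member lower. *Ccnd1*, which encodes cyclin D1, was not shifted in RPFs (−0.24 ± 0.22). Of the FOXO and starvation genes, 10 of 34 were higher and 1 lower in RPFs (median 0.46, with 0.33 in KMNTC and 0.74 in KM4A2cr cells), against 15% of all genes in each direction. Among them *Tsc22d3* had 1.92 ± 0.36 and *Atg12*, an autophagy conjugation factor, 1.14 ± 0.20.

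The targets of p53 leaned the same way in both lines but by unequal amounts. In RPFs 17 of 40 were higher and 1 lower, with a list median of 0.31 in KMNTC cells and 1.16 in KM4A2cr cells, and in total RNA 21 of 40 were higher and 0 lower. *Gdf15*, a stress-induced cytokine, had 10.7, 27.9 and 42.9 CPM in KMNTC RPF replicates 1 to 3 and 119 CPM in replicate 4, and 17.4, 30.1 and 26.9 CPM against 472 CPM in KM4A2cr cells. *Ephx1*, an epoxide hydrolase, had 223, 185 and 252 CPM against 789 CPM and 270, 211 and 165 CPM against 1165 CPM. Both lay above all other days. *Cdkn1a*, which encodes the inhibitor p21, had 43.5, 73.3 and 98.5 CPM of RPFs in KMNTC cells and 71.3 CPM in replicate 4, inside their range. In KM4A2cr cells it had 48.1, 87.3 and 89.1 CPM against 194 CPM. In total RNA its replicate 4 value lay above the other days in both lines. It was 76.6 CPM against 48.7 to 71.7 CPM in KMNTC cells and 192 CPM against 62.5 to 98.5 CPM in KM4A2cr cells.

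The machinery of ribosome production split. Of 83 ribosome biogenesis factors 50 were lower and 1 higher in RPFs (median −0.76), and 35 lower and 3 higher in total RNA (median −0.43). *Polr1b*, the second subunit of RNA polymerase I, had 161, 104 and 90.3 CPM in KMNTC RPF replicates 1 to 3 and 26.4 CPM in replicate 4, and 88.2, 56.1 and 58.1 CPM against 12.4 CPM in KM4A2cr cells. *Bop1*, an assembly factor of the large subunit, had a log2 fold change of −1.90 ± 0.27, and the snoRNP protein gene *Nop56* had −1.31. Cytosolic ribosomal protein genes were on the other side. Of 77 tested in RPFs 61 were higher and 1 lower (median 0.81), and of 79 tested in total RNA 78 were higher and 0 lower (median 1.13). *Rpl38* had 437, 454 and 500.1 CPM in KMNTC RPF replicates 1 to 3 and 1021 CPM in replicate 4, and 504, 483 and 599 CPM against 1078 CPM in KM4A2cr cells. *Rps6* had a log2 fold change of 0.83 and *Rpl24* of 1.03 in RPFs. *Rplp0* was the member lower. Several ribosomal protein genes have processed copies elsewhere in the genome that can share reads.

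Translation factors were mixed. In RPFs 10 of 56 were higher and 8 lower (median −0.04), near the 15% of all genes in each direction. In total RNA 18 of 58 were higher and 12 lower, against 17.8% and 15.5% of all genes. *Pabpc1*, the poly(A)-binding protein, had 196, 211 and 200.5 CPM in KMNTC RPF replicates 1 to 3 and 421 CPM in replicate 4, and 218, 263.5 and 234 CPM against 419 CPM in KM4A2cr cells. Elongation factor gene *Eef2* had a log2 fold change of 0.71. Lower members besides *Eif4a1* included *Eif5a*, *Eif6* and *Eif3b*. Of 20 aminoacyl-tRNA synthetase genes, a group formed after their values were seen, 8 were lower and 0 higher in RPFs (median −0.67). Of 10 SR splicing factor genes, also grouped afterwards, 6 were lower and 0 higher (median −1.35). *Srsf1*, the founding member of the family, had 142, 145 and 144 CPM in KMNTC RPF replicates 1 to 3 and 19.3 CPM in replicate 4, and 91.1, 86.6 and 96.9 CPM against 9.42 CPM in KM4A2cr cells.

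**Figure D3:**
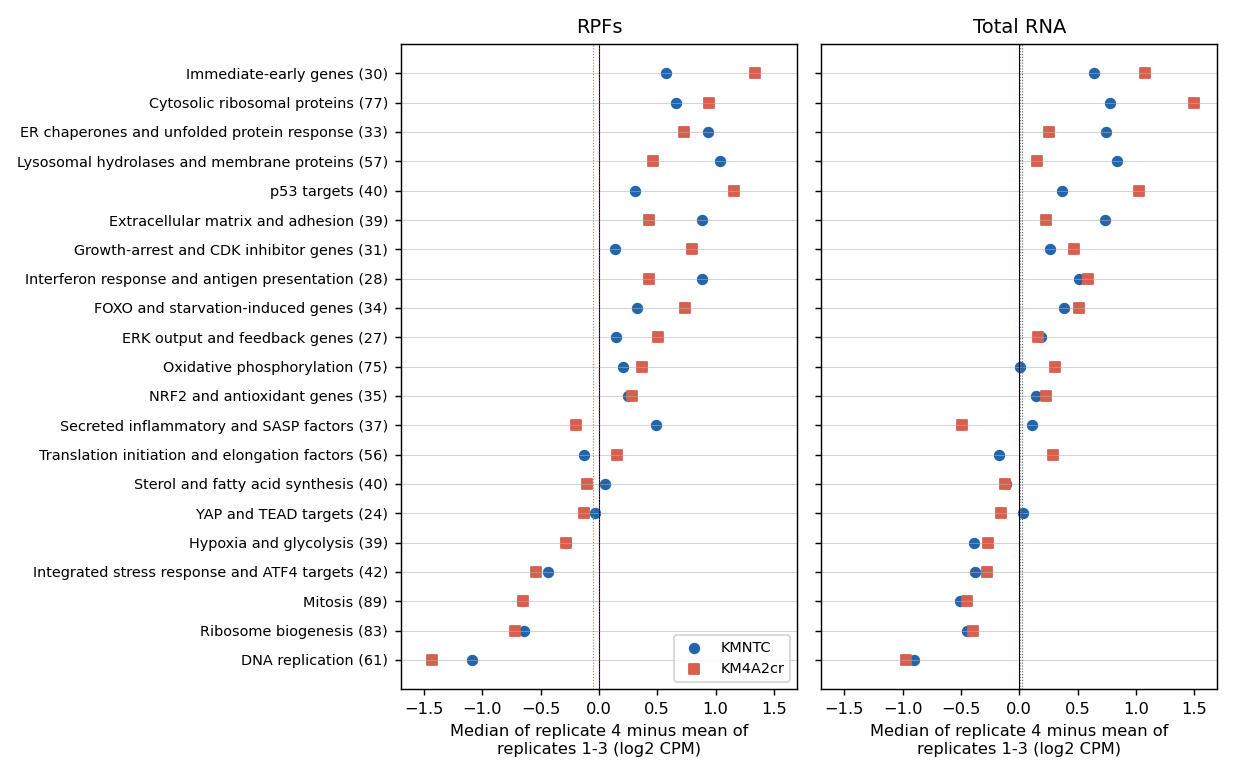
Median difference between replicate 4 and the mean of replicates 1 to 3 for each of the 21 gene lists, in log2 CPM, for RPFs (left) and total RNA (right), with circles for KMNTC and squares for KM4A2cr cells and dotted lines for the medians of all tested genes. DNA replication lies lowest in both lines (−1.09 and −1.43 in RPFs), and the lines lie farther apart for p53 targets (0.31 and 1.16) than for mitosis (−0.66 and −0.65).

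In the lists of endoplasmic reticulum (ER) chaperones, extracellular matrix and lysosomal genes, nearly all of the shifted members were higher in replicate 4. Of 33 ER chaperone genes 19 were higher and 0 lower in RPFs (median 0.76), and 14 of 34 higher and 0 lower in total RNA. *Hspa5*, the ER chaperone BiP, had 3928, 3953 and 5633 CPM in KMNTC RPF replicates 1 to 3 and 11810 CPM in replicate 4, and 5261, 4204 and 6120 CPM against 15460 CPM in KM4A2cr cells. *Dnajb9*, its cochaperone, had a log2 fold change of 1.80 ± 0.24, and *Calr*, the lectin chaperone calreticulin, 1.40. Of 39 genes of extracellular matrix and adhesion 20 were higher and 0 lower (median 0.72). *Lama5*, a laminin chain of basement membranes, had 1574, 1706 and 2724 CPM against 10730 CPM in KMNTC cells and 1797, 2285 and 2195 CPM against 11370 CPM in KM4A2cr cells. *Lama3*, another laminin chain, had 345, 474 and 563 CPM against 2469 CPM and 907, 1169 and 1733 CPM against 4198 CPM.

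Lysosomal genes followed, with 27 of 57 higher and 1 lower in RPFs (median 0.75) and 20 of 57 higher and 3 lower in total RNA (median 0.45). Their list median in RPFs was 1.04 in KMNTC and 0.46 in KM4A2cr cells. *Hexa*, the alpha chain of beta-hexosaminidase, had 53.6, 36.4 and 58.1 CPM in KMNTC RPF replicates 1 to 3 and 533 CPM in replicate 4, and 171, 131 and 197 CPM against 1167 CPM in KM4A2cr cells. *Cd68* had 86.2, 74.0 and 105 CPM against 777 CPM and 126, 102 and 96.1 CPM against 695 CPM. Of the genes whose E-boxes are shown above, *Ctsd* (a protease) had a log2 fold change of 1.61, *Ctsf* (a protease) 1.76, *Gaa* (acid alpha-glucosidase) 1.19 and *Lamp1* (a membrane protein) 0.91. *Acp5* was the 1 member lower. E-box letters lay in 13.2% of promoters of genes shifted higher in RPFs and in 13.8% of those shifted lower.

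Of 28 tested genes of the interferon response and antigen presentation 10 were higher and 3 lower in RPFs (median 0.61). *Tap1*, a peptide transporter, had 7.15, 3.67 and 5.07 CPM in KMNTC RPF replicates 1 to 3 and 44.1 CPM in replicate 4, and 5.56, 6.15 and 4.77 CPM against 61.7 CPM in KM4A2cr cells. *B2m* and *H2-K1*, the chains of class I molecules, had log2 fold changes of 1.19 and 1.07. *Isg20*, an exonuclease induced by interferon, and *Psmb10*, a subunit of the immunoproteasome, were among the lower members (−0.67 and −1.36). Among 37 secreted inflammatory factors 6 were higher and 8 lower in RPFs, near the 15% of all genes in each direction, with list medians of 0.49 in KMNTC and −0.20 in KM4A2cr cells. *Cxcl5*, a neutrophil chemokine, had 287, 156 and 236 CPM against 58.5 CPM in KMNTC cells and 271, 117 and 79.5 CPM against 5.92 CPM in KM4A2cr cells. *Vegfa*, the endothelial growth factor, had 130, 165 and 193 CPM against 886 CPM and 207, 281 and 329 CPM against 928 CPM.

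Metabolic and stress lists held shifted members on both sides. Of 39 hypoxia and glycolysis genes 12 were lower and 5 higher in RPFs (median −0.44). The lower members were mostly enzymes of glycolysis. *Ldha*, lactate dehydrogenase, had 1230, 701 and 602 CPM in KMNTC RPF replicates 1 to 3 and 274 CPM in replicate 4, and 1214, 693 and 613 CPM against 191.5 CPM in KM4A2cr cells, and *Eno1* had a log2 fold change of −2.26. Hypoxia genes such as *Vegfa* and *P4ha1* were among the higher members. Of 40 sterol and fatty acid genes 7 were higher and 5 lower, again near the 15% of all genes. *Fasn*, fatty acid synthase, had 499, 374 and 336 CPM against 94.8 CPM and 364.5, 277 and 237 CPM against 71.9 CPM, whereas *Insig1*, the sterol-regulated retention protein, had a log2 fold change of 1.58. Of 42 genes of the integrated stress response 15 were lower and 7 higher (median −0.52). *Psat1*, an enzyme of serine synthesis, was lower (−1.41), and *Ppp1r15a*, a phosphatase subunit that reverses eIF2 phosphorylation, was higher (2.25 ± 0.29). *Asns*, a target of ATF4, had −0.76 and was not among the shifted genes. Oxidative phosphorylation genes had 19 higher and 5 lower of 75 (median 0.25, or −0.10 with scaling by library size alone), and NRF2 genes 8 higher and 6 lower of 35 (median 0.12, or −0.26 with that scaling).

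Signalling readouts differed by kind. The immediate-early list shares 7 genes with the ERK output list and 3 with the p53 targets, so the counts of these lists are not separate. Of 30 immediate-early genes 18 were higher and 0 lower in RPFs (median 0.93). *Nr4a1*, a nuclear receptor, had 5.88, 29.4 and 32.9 CPM in KMNTC RPF replicates 1 to 3 and 173 CPM in replicate 4, and 3.86, 34.1 and 13.9 CPM against 200.1 CPM in KM4A2cr cells. Replicate 1 held the lowest level in both lines. *Zfp36l1*, an mRNA decay factor, had 32.3, 24.5 and 23.8 CPM against 83.3 CPM and 26.1, 22.9 and 21.0 CPM against 141 CPM. Of 27 ERK output genes 6 were higher and 1 lower (median 0.40), against 15% of all genes in each direction. The lower member was *Dusp6*, the ERK phosphatase, with 154, 125 and 161 CPM against 21.8 CPM in KMNTC cells and 143, 85.2 and 92.0 CPM against 18.3 CPM in KM4A2cr cells. *Dusp4*, another ERK phosphatase, was higher (1.08). Of 24 YAP targets 2 were higher and 3 lower, no more than among all genes. RPFs of *Myc* were higher (0.91 ± 0.23) with 0.01 ± 0.20 in total RNA, but reads of the transgene may be counted here.

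RPFs and total RNA moved together for most of these genes, and translational efficiency, the RPF change beyond that of total RNA, was shifted in fewer. Efficiency was called shifted at an adjusted p under 0.1 in edgeR's fit alone, and the same side in both lines was not required. It was shifted in 1094 of 9989 genes (11%), in 590 higher (5.91%) and in 504 lower (5.05%), again as a description. Without the KM4A2cr lysate of replicate 4 it was shifted in 53 genes, and without the KMNTC lysate in 652. The balance of directions depended on scaling, with 244 higher and 673 lower by library size alone and 803 higher and 445 lower with DESeq2 size factors. *Eif4a2* was among the higher genes, with a log2 efficiency shift of 0.92 ± 0.17. So were 9 of 33 ER chaperone genes, 10 of 56 lysosomal genes, 7 of 37 matrix genes and 13 of 36 secreted inflammatory factors, with 0 lower in each of these lists. Among the cytosolic ribosomal proteins 13 of 77 were lower in efficiency and 0 higher (median −0.31), with total RNA higher by more than RPFs. That gap was wider in KM4A2cr cells, with list medians of 0.95 in RPFs and 1.50 in total RNA. In KMNTC cells the medians were 0.66 and 0.78. Efficiency was also lower for 15 of 83 ribosome biogenesis genes and higher for 0.

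At a mean level of at least 4 log2 CPM, the largest shifts in efficiency were those of genes whose RPFs and total RNA parted. *Timm22*, a subunit of the mitochondrial inner membrane translocase, had 33.8, 26.4 and 38.8 CPM of total RNA in KMNTC replicates 1 to 3 and 202 CPM in replicate 4, and 49.6, 38.4 and 49.0 CPM against 243 CPM in KM4A2cr cells. Its RPFs lay the other way, with 15.7, 13.0 and 21.1 CPM against 9.65 CPM and 19.3, 13.9 and 16.0 CPM against 6.73 CPM. *Zc3h12a*, an endoribonuclease of inflammatory mRNAs, had 86.7, 93.1 and 160.5 CPM of total RNA against 730.4 CPM in KMNTC cells and RPFs of 5.07, 6.06 and 4.93 CPM against 5.46 CPM. *Gm10778*, *Nlrc3* and *Matn2* were the other 3 of the 5 lowest, and RPFs of *Nlrc3* had 0 counts in KM4A2cr replicate 4, so that its fitted change depends on the prior count. *Klf3*, a repressor of transcription, was among the higher genes, with 56.8, 64.3 and 54.7 CPM of RPFs against 121 CPM in KMNTC cells and 119, 118 and 110 CPM of total RNA against 89.3 CPM. *Ly6g*, *Klra7* and *Gpx1* were also among the 5 highest, with total RNA of *Ly6g* at 0 counts in KMNTC replicate 4. *Ly6g* and *Klra7* have close relatives in their gene clusters that can share reads.

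Isoform use moved with lower efficiency in some genes. RPFs were counted on 1 transcript per gene, and total RNA over all isoforms. For genes with more than 1 isoform and enough counts, the share of total RNA held by the RPF transcript was compared. Its change in replicate 4 was averaged over both lines. That mean was a rise of at least 10 percentage points for 32 of 269 genes of lower efficiency (11.9%). The same held for 3 of 313 of higher efficiency (0.958%) and 80 of 4725 in all (1.69%). In *Matn2* that share was 61.5%, 52.3% and 65.7% in KMNTC replicates 1 to 3 and 92.8% in replicate 4, and 60.8%, 48.8% and 58.4% against 97.3% in KM4A2cr cells. The total RNA of this isoform was thus higher while RPFs of the gene were lower. The median transcript length was 2995.5 bases for genes of lower and 3077.5 bases for genes of higher efficiency, and 2794 bases over all. The part of isoforms in the efficiency shifts was not tested.

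**Figure D4:**
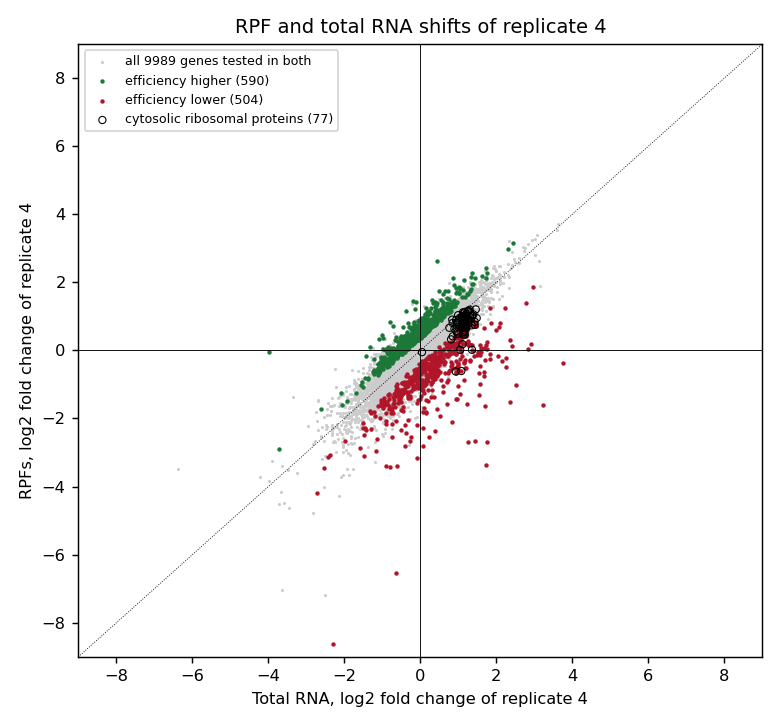
Log2 fold change of replicate 4 against replicates 1 to 3 in total RNA (x axis) and RPFs (y axis) for 9989 genes, with genes of higher (590, green) and lower (504, red) translational efficiency and cytosolic ribosomal proteins as open circles. Most genes lie near the dotted diagonal, and most ribosomal proteins lie below it, with medians of 1.13 in total RNA and 0.81 in RPFs. By line these medians were 0.78 and 0.66 in KMNTC cells and 1.50 and 0.95 in KM4A2cr cells.

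The difference between the lines on the day of replicate 4 was set against that on the other days. In the interaction of cell line and replicate 4, with the replicate number as a block, 1713 of 10291 genes (16.6%) differed in RPFs (adjusted p under 0.1), 515 (5%) with KM4A2cr higher relative to KMNTC than on the other days and 1198 (11.6%) with it lower. In total RNA 2679 of 10880 (24.6%) differed, 1099 (10.1%) up and 1580 (14.5%) down. Replicate 4 has 1 lysate per line, so the spread comes from the pairs of replicates 1 to 3 with 2 residual degrees of freedom, and p-values measure only the spread between these samples. They set 1 pair, picked with its values known, against 3 pairs, so they tell how far that pair lay from the others and not what another such day would give. Without the replicate block edgeR called 0 genes in RPFs, with 460 at an unadjusted p under 0.05, and 0 in total RNA, with 668. DESeq2 with the block called 1059 and 1518. By library size alone the RPF calls were 965 up and 1012 down.

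Among the p53 targets the interaction was positive and past the threshold in 20 of 40 and negative in 1 in RPFs (median 0.90, and −0.03 over all genes), and positive in 19 and negative in 3 of 40 in total RNA. The median difference KM4A2cr minus KMNTC over the list was −0.17, 0.15 and −0.03 log2 CPM in pairs 1 to 3 and 0.81 in pair 4. *Mdm2*, the ligase that degrades p53, had 173, 156 and 163.5 CPM in KMNTC RPF replicates 1 to 3 and 133 CPM in replicate 4, and 117, 111 and 104 CPM against 327 CPM in KM4A2cr cells. It was thus higher in replicate 4 in KM4A2cr cells and lower in KMNTC cells. Its log2 interaction was 1.86 ± 0.20 (SE), and KM4A2cr cells were lower than KMNTC cells in 3 of 3 pairs on the other days. *Cdkn1a* had an interaction of 1.36, *Plk2* of 1.42 and *Gdf15* of 1.98.

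The interaction was also positive and past the threshold in 12 of 30 immediate-early genes and negative in 0 in RPFs (median 0.69), against 5% and 11.6% of all genes. *Egr1*, an early zinc finger factor, had 8.51, 53.8 and 67.9 CPM in KMNTC RPF replicates 1 to 3 and 108.5 CPM in replicate 4. In KM4A2cr cells it had 5.19, 35.2 and 33.9 CPM against 408 CPM, with an interaction of 2.70 ± 0.23. *Btg2*, an antiproliferative gene on both lists, had 21.5, 8.54 and 7.94 CPM against 17.6 CPM and 15.0, 5.54 and 6.03 CPM against 59.2 CPM. Its interaction was 2.27. *Foxo3* had 22.4, 17.7 and 17.1 CPM against 21.8 CPM, within the range, and 17.2, 15.4 and 10.9 CPM against 65.2 CPM (interaction 1.97). In total RNA of KMNTC cells its replicate 4 value of 43.3 CPM lay above the 22.45 to 34.1 CPM of the other days. *Eif4a2* had an interaction of 0.44 ± 0.23 that did not pass (adjusted p = 0.250, edgeR).

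In other lists the calls were mostly negative. The interaction was negative in 27 and positive in 0 of 57 lysosomal genes in RPFs (median −0.53) and negative in 34 and positive in 0 of 57 in total RNA (median −0.74). On replicates 1 to 3 these genes were higher in KM4A2cr cells, with 41 of 57 higher and 1 lower in RPFs against 1982 (19.1%) higher and 1487 (14.3%) lower of 10376 genes tested (33.4%). In total RNA 46 of 58 were higher and 0 lower, where 3260 of 10941 genes (29.8%) were called, 1951 (17.8%) higher and 1309 (12%) lower. The median difference of the list was 0.62, 0.44 and 0.28 in pairs 1 to 3 and −0.15 in pair 4. Of the matrix genes 13 of 39 were negative and 1 positive (median −0.49), of the secreted inflammatory factors 14 of 37 negative and 1 positive (median −0.80), and of the ER chaperones 9 of 33 negative and 0 positive (median −0.32). Line differences in RPFs over these lists fell from pair to pair, also among pairs 1 to 3. In pairs 1 to 4 the median was 0.54, 0.40, 0.15 and −0.13 for the matrix genes. It was 0.52, 0.12, −0.28 and −0.59 for the secreted factors and 0.66, 0.47, 0.43 and 0.17 for the ER chaperones. The counts of the lines on replicates 1 to 3 also rest on the replicate block, without which 2 genes were called in RPFs. They rest on replicate 2 as well, without which 1292 were higher and 707 lower. By library size alone 1376 were higher and 3285 lower.

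Genes among those with the smallest p in that direction encode membrane proteins and a glycosylation enzyme. They were picked by this same contrast, so their values describe 1 pair against 3. *Itga2*, the collagen-binding integrin subunit, had 2162, 2683 and 3835 CPM in KMNTC RPF replicates 1 to 3 and 2929 CPM in replicate 4. In KM4A2cr cells it had 3924, 4276 and 6310 CPM against 1222 CPM. Its log2 interaction was −2.01 in RPFs and −2.52 in total RNA. Its replicate 4 RPF value lay within the range of the other days in KMNTC cells and below it in KM4A2cr cells. *Slc40a1* (the iron exporter, −2.01), *Alg2* (a mannosyltransferase, −1.99) and *Antxr2* (a matrix receptor, −1.66) had the same direction. *Mki67* had an interaction of −2.19, and KM4A2cr cells were higher than KMNTC cells in 3 of 3 pairs on the other days.

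Most ribosomal protein mRNAs were higher in total RNA of KM4A2cr cells in replicate 4, relative to KMNTC cells and the other days. The interaction was positive in 71 and negative in 0 of 79 in total RNA (median 0.70) and in 4 and 0 of 77 in RPFs (median 0.23). The list median of total RNA in replicate 4 against the other days was 0.78 in KMNTC and 1.50 in KM4A2cr cells. Translation factors followed in total RNA, with 26 of 58 positive and 0 negative. Whether the interaction itself differed between the kinds of library was not tested. Of 61 DNA replication genes 5 were negative and 0 positive in RPFs (median −0.19), no more than the 11.6% negative and 5% positive among all genes.

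**Figure D5:**
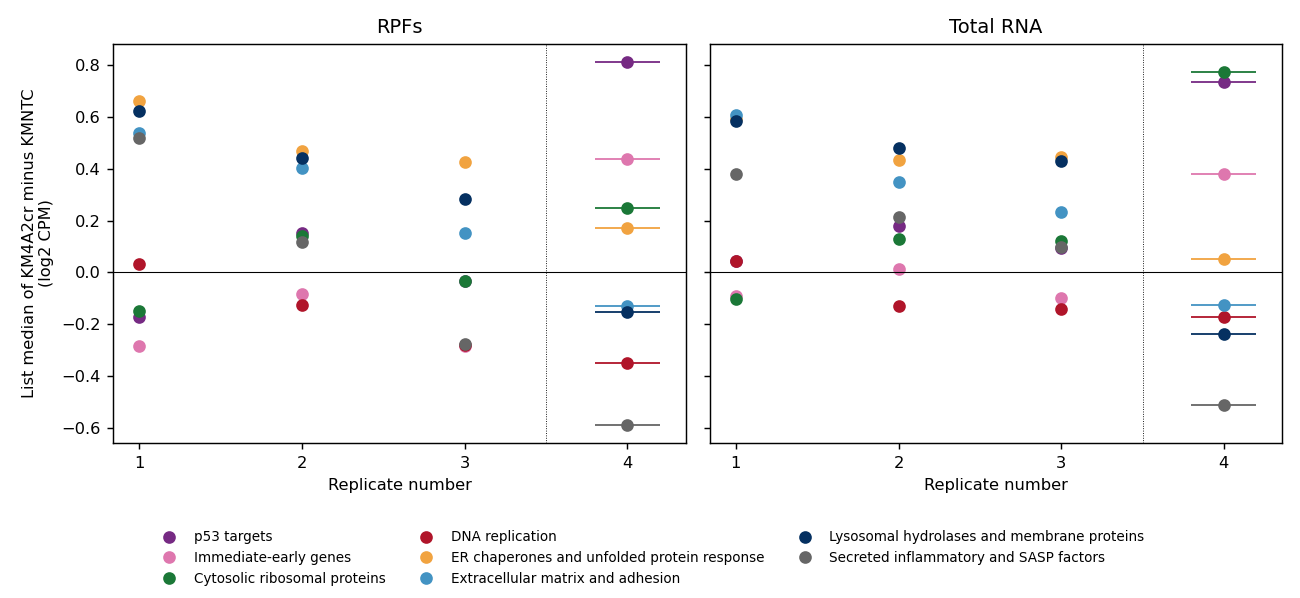
List median of KM4A2cr minus KMNTC in log2 CPM by replicate number, for RPFs (left) and total RNA (right), with 1 colour for each of 8 gene lists and replicate 4 to the right of the dotted line. In RPFs p53 targets lie at 0.81 in replicate 4 and between −0.17 and 0.15 otherwise, and lysosomal genes at −0.15 against 0.28 to 0.62.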

How the data were processed

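KMNTC and KM4A2cr cells gave 8 libraries of RPFs and 8 of cytoplasmic total RNA, with 4 replicates per line and kind. The RPF files that the authors deposited hold counts per coding sequence, 1 transcript a gene, from fragments of 28 to 33 bases after trimming with Cutadapt 1.18, alignment with BBmap to a GENCODE mouse transcriptome and removal of duplicates with UMI-tools 1.0.1. For total RNA the authors deposited RSEM 1.3.3 expected counts and TPM values per isoform after Bowtie2 2.3.5.1 and SAMtools 1.9. Expected counts were summed per gene and rounded, and TPM served only to set *Eif4a2* against *Eif4a1*. The authors tested their counts with DESeq2. Depth ranged from 4512403 to 9621848 counts per library, so a gene near the filter rests on few reads.

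Genes were filtered with filterByExpr and scaled by TMM within each kind of library, so a change of all footprints or all mRNA leaves no trace. CPM values are TMM-scaled, log2 CPM used a prior count of 2, and errors are standard errors unless said otherwise. Fits used edgeR 4.0.16 in R 4.3.3 (glmQLFit and glmQLFTest, Benjamini-Hochberg adjustment over all tested genes, threshold 0.1). Replicate 4 was set against replicates 1 to 3 with the cell line as a term, and efficiency as the interaction with the kind of library in 1 model with a term for each lysate. The interaction of cell line and replicate 4 and the line difference in replicates 1 to 3 had the replicate number as a block. The numbers pair the libraries, since the labels describe replicates as harvests of different days. Deviations from the line means correlated between same-numbered libraries at 0.575 to 0.782 in RPFs and 0.611 to 0.756 in total RNA, and at 0.562 or more among replicates 1 to 3 alone. Comparisons share libraries, so their values stand side by side and were not correlated. Each fit was first tested on simulated counts. These were drawn independently for each library, without an effect shared by a day. They could not show how such an effect acts on the fits.

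The members, the 21 gene lists and the named genes were chosen with earlier results of these data known, so they are no independent evidence. Named genes were the eIF4A and cell cycle genes of the study, the 8 largest shifts each way in both kinds of library, the 2 members of each list with the smallest p, the 5 largest efficiency shifts each way, the 5 interaction genes each way with the smallest p, and the 5 genes most like *Eif4a2*. Histone, SR factor and tRNA synthetase groups, *Srsf1*, *Cxcl5* and list members outside this rule were chosen after their values were seen. Some alleles and genes are not reported here. Alternatives were other scalings, filters, a threshold of 0.05, DESeq2 1.42.0, no line or replicate block, the RPF isoform only, and left-out lysates or replicates. Promoters came from RefSeq on GRCm38.p6, not the annotation of the files.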

Additional observations from a re-analysis of the deposited data

Results flagged for a closer look

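Replicate 4 lay far from the other 3 libraries of its group, by Dixon's criterion on log2 CPM, for 21 of 86 named genes (24.4%) in RPFs of KMNTC cells, 17 (19.8%) in RPFs of KM4A2cr cells, 16 (18.6%) in total RNA of KMNTC cells and 18 (20.9%) in total RNA of KM4A2cr cells. The named genes were partly chosen for this difference, so these counts are a description with no test. Another library lay far out only for *Antxr2* (7.245 log2 CPM), in the RPFs of KMNTC replicate 2, and in 0 named genes of the other 3 groups.

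The lines differed between replicate 4 and the other days, in edgeR's interaction test, for 26 named genes in RPFs and 32 in total RNA. In RPFs KM4A2cr cells were higher relative to KMNTC cells in replicate 4 for *Egr1* (log2 interaction 2.698), *Btg2* (2.265), *Gdf15* (1.98), *Foxo3* (1.973), *Mdm2* (1.86), *Plk2* (1.421), *Cdkn1a* (1.358), *Gadd45a* (1.259), *Ercc5* (0.997), *Zfp36l1* (0.962), *Myc* (0.714), *Rtraf* (0.668) and *Ccnd1* (0.552). They were lower for *Cxcl5* (−2.633), *Mki67* (−2.19), *Itga2* (−2.011), *Slc40a1* (−2.009), *Alg2* (−1.99), *Antxr2* (−1.656), *Lrp1* (−0.983), *Stmn1* (−0.807), *Lama3* (−0.673), *Vegfa* (−0.672), *Klra7* (−0.652), *Hexa* (−0.628) and *Vldlr* (−0.591). All 26 calls were lost without the replicate block. Among the RPF calls, those of *Ccnd1*, *Hexa*, *Lrp1*, *Stmn1*, *Vldlr*, *Vegfa*, *Lama3*, *Klra7* and *Rtraf* were also lost without replicate 2, and that of *Ccnd1* without replicate 3.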

How the results depend on the processing

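The replicate 4 shift of RPFs (3078 genes) stood at 619 to 3092 genes when lysates were left out in turn, with 619 without KM4A2cr replicate 4 and 1528 without KMNTC replicate 4. That of total RNA (3627) stood at 856 to 3842, with 856 without KM4A2cr replicate 4, and that of efficiency (1094) at 53 to 1263, with 684 at a threshold of 0.05. The interaction of line and replicate 4 gave 1127 genes in RPFs at a threshold of 0.05, 1059 with DESeq2 and 1293 to 2416 with a replicate left out, and in total RNA 1518 with DESeq2 and 2104 to 3381 with a replicate left out. Without the replicate block it gave 0 in RPFs and 0 in total RNA. The line difference in replicates 1 to 3 gave 2227 genes with DESeq2 (1511 higher, 716 lower), 2 without the replicate block and 1999 to 3472 with a replicate left out in RPFs, and 2011 (1433 higher, 578 lower), 15 and 2182 to 3401 in total RNA, where library size alone gave 1507 higher and 3210 lower. DESeq2 gave 741 higher and 365 lower shifts of efficiency. List medians turned sign by library size alone for oxidative phosphorylation (−0.104 in RPFs, −0.135 in total RNA) and NRF2 genes (−0.261, −0.111). With lysates left out in turn, total RNA medians turned for oxidative phosphorylation (−0.03 to 0.261), secreted inflammatory factors (−0.567 to 0.037) and YAP targets (−0.299 to 0.026), each without KM4A2cr replicate 4, and in KMNTC cells alone for the last 2 (0.105 and 0.028). The causes were not tested. Named genes that were called in a comparison turned sign in it under 0 alternatives. Signs were not compared for named genes that were not called. Nor were they compared for list medians smaller than their spread among replicates 1 to 3. Shallow depth in replicate 4 limits the precision of scarce genes.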
